A study of Mus musculus with 24 samples.

Results

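The genes Car4, Krt79, Krt19, Plet1, Ear1, Ear2, Fabp1, Cidec, Epcam and Slc39a2 mark the tissue-resident alveolar macrophages of the mouse lung. These 10 markers were taken as a list, without Siglecf, whose protein was used for the sort, and all 10 were found by gene ID among the 43430 genes of the deposited count table. Lung macrophages of C57BL/6J mice had been sorted into 6 groups with 4 RNA-seq libraries each, 24 in all, and the markers were followed over these. Siglec F-high cells came from young naive, old naive, young asbestos and old asbestos mice, and Siglec F-low cells came from young and old asbestos mice. Young mice were 8 to 12 weeks old and old mice over 18 months old per the sample labels, while the series text gave 2 and 18 months. Asbestos had been given 28 days before the cells were taken, and naive mice had not received it. The labels named no genotype beyond the strain and did not say whether the libraries of a group came from separate animals, so the p-values measure the spread between these libraries, which may be technical. The series text called the sorted cells tissue-resident and monocyte-derived, while the sample labels named only the Siglec F level, and the groups are named here by Siglec F.

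Resident alveolar macrophages are seeded before and around birth, maintain themselves in the airspace, and clear surfactant lipid under the control of GM-CSF and the nuclear receptor PPAR gamma. When the lung is injured, monocytes enter the airspace and become macrophages that begin with low Siglec F and take on alveolar genes with time. The 10 markers cover cell surface proteins, keratins, secreted ribonucleases, lipid-handling proteins and a zinc transporter, several of which are better known from epithelia.

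Levels are in CPM, counts divided by library size and TMM factor, and a gene was said to rise or fall where the quasi-likelihood test of edgeR gave an adjusted p under 0.05 over all genes tested. Of the libraries, 22 held between 13423080 and 18124526 counts. Replicate 3 of the old asbestos Siglec F-high group held 3894699 counts, of which 35.57% fell on the ribosomal-repeat gene Gm42418, and replicate 3 of the young asbestos Siglec F-high group held 11889517 counts on only 12528 genes. These 2 libraries stood apart from their own groups, so the comparisons are given from all 24 libraries and again from the other 22. Gene positions are those of GENCODE M21 on GRCm38. Siglecf itself fell from Siglec F-high to Siglec F-low cells, with a log2 fold change of -0.67 (adjusted p = 0.00443, edgeR) in young and -1.35 (adjusted p = 3.84e-06) in old asbestos mice, in the direction of the sort labels.

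All 10 markers passed the filter on low counts, which left 13467 genes, and the lowest count of any marker in any library was 54, for Fabp1. Levels can be compared between genes only per length, and on CPM per kilobase of exon the secreted ribonuclease gene Ear2 was the highest of the 10 in young naive cells, at 1869 ± 355 (mean ± SD, n = 4). Plet1 followed at 618 ± 53.6, Ear1 at 589.8 ± 140.3 and Krt19 at 462 ± 127 CPM per kilobase, and neighbours among these 3 did not differ beyond their spread. Fabp1, Cidec, Car4 and Krt79 lay between 268 ± 62.8 and 141 ± 34.3. The zinc transporter gene Slc39a2, at 20.5 ± 4.95 CPM per kilobase, was the lowest, and the adhesion gene Epcam came next. Every other value below is CPM without length, so that it is to be read within a gene.

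In asbestos mice, 6 of the 10 markers were lower in Siglec F-low than in Siglec F-high cells in the young and 4 in the old, and 1 marker was higher in the young. Epcam, Fabp1, Cidec and Ear1 fell at both ages, Krt79 and Krt19 fell in the young, and the zinc transporter gene Slc39a2 rose in the young. Among all genes tested, 4.99% were called in the young (1.58% lower and 3.41% higher) and 4.30% in the old (1.66% lower and 2.64% higher). With 22 libraries 5 markers fell and 1 rose in the young, against 4.60% and 7.42% of all genes (12.0% in all), and 7 fell and 0 rose in the old, against 5.28% and 6.30% (11.6% in all). The median log2 fold change of the 10 markers was -0.78 in the young and -0.43 in the old (both -0.54 with 22 libraries), while that of all genes was 0.004 and -0.004. Groups did not overlap for 7 of the 10 in the young and 2 in the old, against 12.4% and 16.3% of all genes, and with 22 libraries for 8 and 6, against 23.9% and 22.8%. In sorted bulk RNA, a smaller share of cells that carry a transcript and less of it per cell cannot be told apart.

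**Figure D1:**
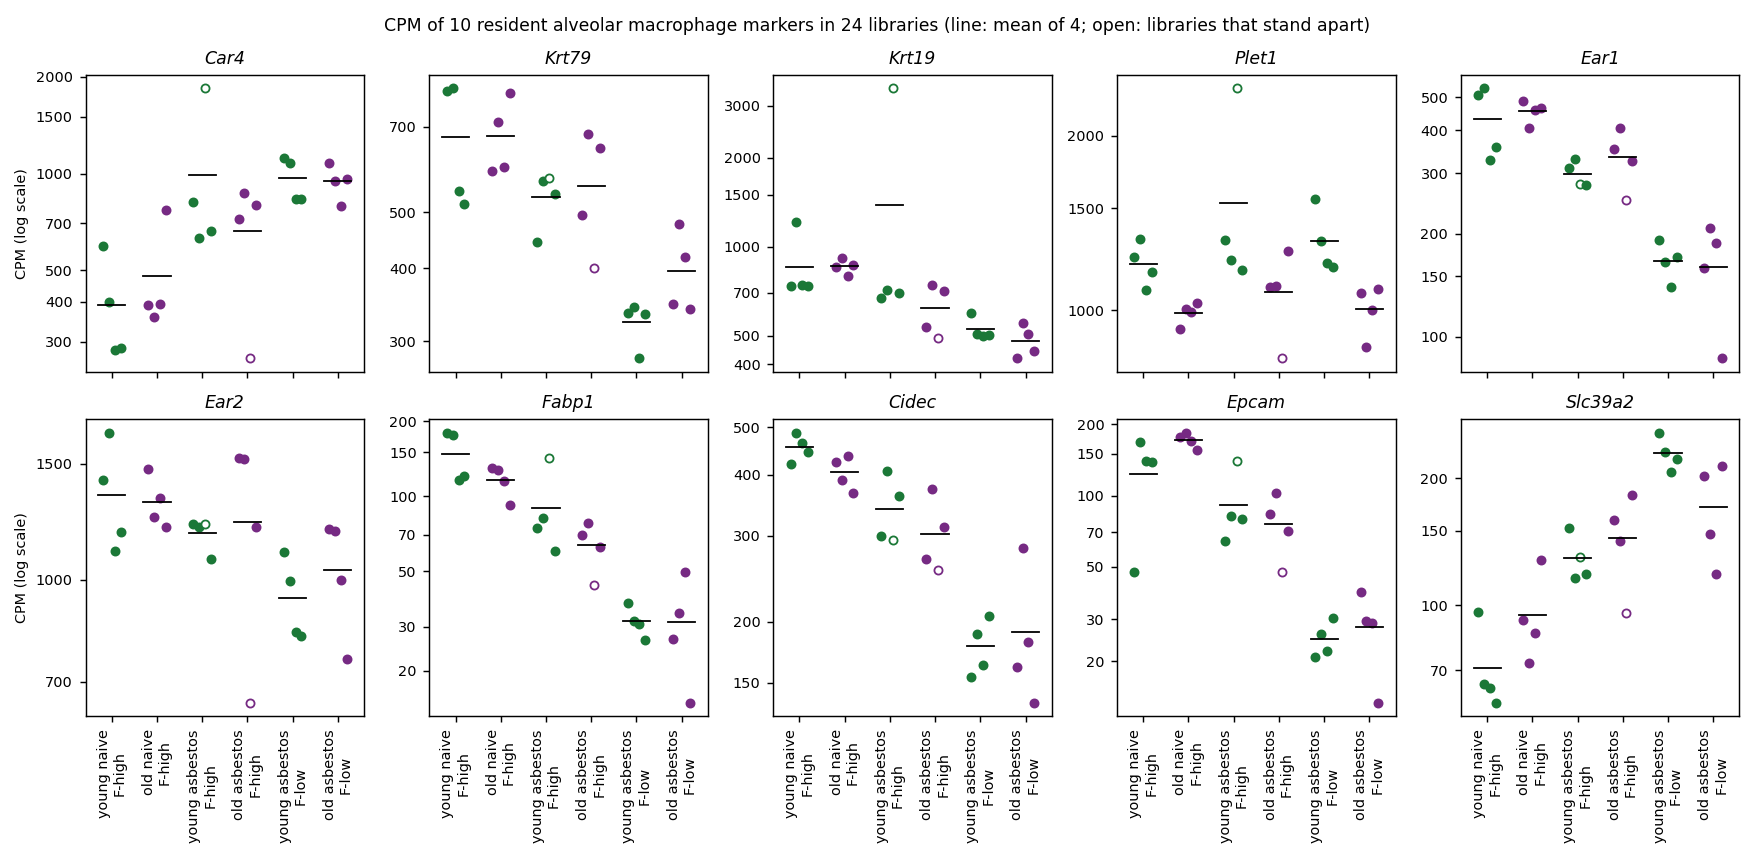
CPM of the 10 markers on log axes, each panel with its own scale, in the 24 libraries by group. Points are libraries, lines are means of 4, and open circles are the 2 libraries that stood apart. At both ages the means of Epcam, Fabp1, Cidec, Ear1, Krt79 and Ear2 step down from naive to Siglec F-high to Siglec F-low cells. Those of Slc39a2 step up.

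Epcam (ENSMUSG00000045394, chromosome 17, 87635979 to 87651129, plus strand) encodes an adhesion molecule of epithelial cells that resident alveolar macrophages also carry. Young naive libraries held 47.5, 169, 140.1 and 139 CPM in replicates 1 to 4, and old naive libraries 177, 184, 170.1 and 155. In Siglec F-high cells of asbestos mice the values were 64.4, 82.1, 140.1 and 79.5 in the young and 83.2, 102, 47.4 and 71.2 in the old. Their Siglec F-low cells held 20.8, 26.0, 22.1 and 30.5 in the young and 39.3, 29.4, 28.8 and 13.3 in the old. All Siglec F-low libraries lay below all Siglec F-high libraries, and the first young naive replicate, at 47.5, was far under the other 3 of its group. Epcam fell from Siglec F-high to Siglec F-low cells at both ages, with a log2 fold change (± SE) of -1.88 ± 0.33 (adjusted p = 0.00107, edgeR) in the young and -1.48 ± 0.33 (adjusted p = 0.0104) in the old, the lowest of the 10 markers in both. With 22 libraries the values were -1.60 ± 0.30 (adjusted p = 7.94e-04) and -1.63 ± 0.30 (adjusted p = 6.36e-04), and the old call from all libraries was lost without old Siglec F-low replicate 4 (adjusted p = 0.0536). Siglec F-low cells held 20.1% of the mean naive level in the young and 16.2% in the old.

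Epithelial RNA was looked for because Epcam and the keratins are epithelial genes. Of 22 epithelial marker genes, Cdh1, at 85.7 to 280 CPM, and Abca3, at 19.3 to 168 CPM, made up most of the sum. The other 20 summed to 22.7 to 36.1 CPM in young naive, 22.98 to 30.03 in old naive, 31.0 to 115.6 in young and 27.0 to 72.9 in old asbestos Siglec F-high, 31.3 to 83.7 in young and 32.6 to 38.4 in old asbestos Siglec F-low libraries. The Siglec F-low ranges overlapped those of Siglec F-high cells of asbestos mice. Krt8 and Krt18, the keratin pair of simple epithelia, did not pass 0.456 and 0.590 CPM in any library, and were at 0 in 11 and 7 libraries. The part of epithelial RNA in the results was not tested beyond these values.

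Plet1 (ENSMUSG00000032068, chromosome 9, 50494525 to 50505482, plus strand) encodes a surface protein held by a lipid anchor. Its levels were 1234, 1330.3, 1085 and 1163 CPM in young naive and 930.1, 1004, 993 and 1029.8 in old naive cells. Siglec F-high cells of asbestos mice held 1322, 1222, 2419 and 1173 in the young and 1098, 1104, 826 and 1269 in the old, and Siglec F-low cells 1559.6, 1319, 1208 and 1189.7 in the young and 1071, 864, 1003 and 1088 in the old. Outside young Siglec F-high replicate 3, at 2419, all libraries lay between 826 and 1560 CPM, the narrowest range of the 10 in proportion to level. Between the sorts the log2 fold change was -0.22 ± 0.18 (adjusted p = 0.524, edgeR) in the young and -0.09 ± 0.18 (adjusted p = 0.914) in the old, and the young value was 0.089 with 22 libraries, so its direction was not settled. The old value also turned sign without Siglec F-high replicate 4. The Plet1 exons share 261 bases with an antisense gene, Plet1os, and without the strand setting of the counting the reads of both cannot be told apart.

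Plet1 was the only marker called for age by edgeR with 22 libraries and no replicate block, and 0 were called with 24. That is 1 of 10 markers in Siglec F-low cells, against 7.21% of all genes there, so it is near the share of all genes. In Siglec F-low cells all 4 old libraries (864 to 1088 CPM) lay below all 4 young ones (1190 to 1560), and in naive cells all 4 old (930 to 1030) lay below all 4 young (1085 to 1330). The log2 fold change of old against young Siglec F-low cells was -0.39 ± 0.18 (adjusted p = 0.587, edgeR) with all libraries and -0.38 ± 0.09 (adjusted p = 0.00837) with 22, a fall. It was also called with only the 2 Siglec F-low groups fitted (-0.38, adjusted p = 0.0391). In naive cells it was -0.28 ± 0.18 (adjusted p = 0.885) and, with 22 libraries, -0.28 ± 0.09 (adjusted p = 0.0533). Groups without overlap were found for 1 of the 10 markers and 12.9% of all genes in Siglec F-low cells, and for 1 and 12.0% in naive cells.

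Car4 (ENSMUSG00000000805, chromosome 11, 84957786 to 84966044, plus strand) encodes a membrane-bound carbonic anhydrase, an enzyme that interconverts carbon dioxide and bicarbonate. Naive libraries held 595, 399.7, 282 and 286 CPM in the young and 391, 358, 394 and 773 in the old. In asbestos mice Siglec F-high cells held 817, 629, 1843 and 663 in the young and 721, 872, 266 and 796 in the old. The Siglec F-low libraries held 1121, 1078, 836 and 836 in the young and 1079.5, 946, 793 and 963 in the old. Every young asbestos library lay above every young naive one, and young Siglec F-high replicate 3, at 1843, was far above the other 3 of its group. Car4 in young Siglec F-high cells differed between asbestos and naive mice by 0.84 ± 0.23 (adjusted p = 0.0364, edgeR) with 22 libraries, a rise, and by 1.34 ± 0.36 (adjusted p = 0.0534) with all 24. Leaving out young naive replicate 1 or young Siglec F-high replicate 2 or 4 from the 24 also brought it past the threshold, at 1.49 to 1.61. The old value was 0.74 ± 0.23 (adjusted p = 0.0782) with 22 libraries. Between the young sorts Car4 had no settled direction, with -0.03 ± 0.35 from 24 and 0.46 ± 0.24 (adjusted p = 0.237) from 22 libraries. Between the old sorts it was above 0 but not called, at 0.51 from 24 and 0.24 from 22 libraries. With 1 library left out the old value ran from 0.24 to 0.67.

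Krt79 (ENSMUSG00000061397, chromosome 15, 101929332 to 101940324, minus strand) encodes a type II keratin, an intermediate filament protein known from hair follicle epithelium. It stood at 808, 816, 544 and 517 CPM in young naive and 589, 715, 598 and 802 in old naive libraries. The values in asbestos Siglec F-high cells were 445, 564, 573 and 537 in the young and 495, 680.1, 400.2 and 644 in the old. In Siglec F-low cells they were 336, 343, 280.2 and 333 in the young and 347, 476, 418 and 340.5 in the old. In young asbestos mice the sorts did not overlap, while in the old they did. Krt79 fell in young Siglec F-low cells, with a log2 fold change of -0.71 ± 0.18 (adjusted p = 0.0193, edgeR) from 24 and -0.67 ± 0.16 (adjusted p = 0.00606) from 22 libraries, and the first call was lost without young Siglec F-low replicate 1 (adjusted p = 0.0539) or 3 (adjusted p = 0.0883). The old value was -0.49 ± 0.18 (adjusted p = 0.147) and, with 22 libraries, -0.62 ± 0.16 (adjusted p = 0.0112), a fall.

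Krt19 (ENSMUSG00000020911, chromosome 11, 100140810 to 100148665, minus strand) encodes a type I keratin of simple and duct epithelia. Its naive levels were 738, 1211, 742 and 736 CPM in the young and 857, 917, 797 and 867 in the old. Asbestos Siglec F-high cells held 669.6, 716, 3445 and 698 in the young and 536, 741, 491 and 709.6 in the old, and Siglec F-low cells 595, 509, 499.9 and 503 in the young and 419, 552, 509 and 444 in the old. The value of 3445 in young Siglec F-high replicate 3 was the highest of the 24. In that library Krt7, Krt8 and Krt18 were at 0, while Sftpc, the surfactant protein of alveolar type 2 cells, was at 41.5 CPM. The young fall of Krt19, -1.39 ± 0.37 (adjusted p = 0.03, edgeR), shrank to -0.40 ± 0.14 (adjusted p = 0.0691) with 22 libraries and -0.37 (adjusted p = 0.0397) with 22 and a replicate block, and the call was also lost without any single young Siglec F-low replicate. In the old it was -0.37 ± 0.37 (adjusted p = 0.748) and, with 22 libraries, a fall of -0.47 ± 0.14 (adjusted p = 0.0325).

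Ear1 and Ear2 encode eosinophil-associated ribonucleases, secreted enzymes that belong to a cluster of near-identical genes on chromosome 14 and that mouse alveolar macrophages also make. On GRCm38 (GENCODE M21), Ear1 (ENSMUSG00000072601) lies at 43818765 to 43875517 on the minus strand and Ear2 (ENSMUSG00000072596) at 44102654 to 44103534 on the plus strand. The 250 bases before each RefSeq start are printed (GRCm38.p6), which for Ear1 lie in an intron of the longer GENCODE gene, because the ratio of this near-identical pair is described further on, with capitals at the aligned bases that differ between the pair.
Ear1 (chr14:43819640-43819889, minus): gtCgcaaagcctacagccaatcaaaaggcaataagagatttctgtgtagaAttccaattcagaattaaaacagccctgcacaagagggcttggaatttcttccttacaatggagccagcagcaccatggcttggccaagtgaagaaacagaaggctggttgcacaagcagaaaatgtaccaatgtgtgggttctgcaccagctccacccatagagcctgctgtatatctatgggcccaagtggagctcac
Ear2 (chr14:44102404-44102653, plus): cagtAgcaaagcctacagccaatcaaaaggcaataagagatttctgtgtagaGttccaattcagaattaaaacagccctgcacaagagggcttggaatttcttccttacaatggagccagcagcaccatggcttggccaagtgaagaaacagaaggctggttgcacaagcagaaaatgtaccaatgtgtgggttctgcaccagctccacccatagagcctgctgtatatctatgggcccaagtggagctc
The RefSeq windows, which run on past the start to 300 bases, were identical at 294 of 298 aligned positions (98.66%). Over the coding sequences, of 465 and 468 bases, 446 positions were identical (95.3%), and bases 71 to 170 hold 8 of the differences, again in capitals.
Ear1 coding bases 71 to 170: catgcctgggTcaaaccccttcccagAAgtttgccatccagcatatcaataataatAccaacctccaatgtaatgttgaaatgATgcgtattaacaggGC
Ear2 coding bases 71 to 170: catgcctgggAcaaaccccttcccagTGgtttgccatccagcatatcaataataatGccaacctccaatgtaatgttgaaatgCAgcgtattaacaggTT
Of all stretches of 50 bases in the transcripts, 381 of 664 in Ear1 (57.38%) and 278 of 670 in Ear2 (41.49%) occur unchanged in another gene of the family, so the counts of both are uncertain wherever a read fell in a shared stretch.

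Ear1 stood at 505, 531, 328 and 358 CPM in young naive and 485, 407, 459.6 and 464 in old naive cells. Siglec F-high cells of asbestos mice held 309.8, 329, 279 and 276 in the young and 352, 407, 249.9 and 325 in the old. Siglec F-low cells held 191, 165, 139 and 171 in the young and 159, 207, 188 and 86.4 in the old. All Siglec F-low libraries lay below all Siglec F-high ones at both ages. Ear1 fell between the sorts, with a log2 fold change of -0.84 ± 0.21 (adjusted p = 0.0164, edgeR) in the young and -1.06 ± 0.21 (adjusted p = 0.00329) in the old. With 22 libraries these were -0.88 ± 0.20 (adjusted p = 0.00402) and -1.18 ± 0.20 (adjusted p = 2.46e-04), and the young call from 24 was lost without Siglec F-low replicate 2 or 3. In Siglec F-low cells the mean was 38.7% of the naive mean in the young and 35.2% in the old.

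Ear2 had the higher counts of the pair. Its levels were 1415, 1672, 1106 and 1183 CPM in young naive and 1471, 1246, 1330.4 and 1201 in old naive libraries. Asbestos Siglec F-high cells held 1216, 1200.5, 1213 and 1076 in the young and 1527, 1523, 650.1 and 1200.5 in the old, and Siglec F-low cells 1103, 996, 834 and 822 in the young and 1192, 1184, 999 and 759 in the old. The sorts overlapped at both ages, in the young through Siglec F-high replicate 4, at 1076, and Siglec F-low replicate 1, at 1103, and in the old through Siglec F-high replicate 3, at 650.1. The log2 fold change between the sorts was -0.33 ± 0.20 (adjusted p = 0.371, edgeR) in the young and -0.25 ± 0.20 (adjusted p = 0.659) in the old, and with 22 libraries the old value was -0.46 ± 0.15 (adjusted p = 0.0411), a fall. With 22 libraries and a replicate block the young value was -0.29 (adjusted p = 0.0387), also a fall.

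The ratio of Ear1 to Ear2 counts, which does not depend on library size, was computed after the values had been seen. It was 0.319 ± 0.0272 (SD, n = 4) in young naive and 0.347 ± 0.0273 in old naive cells. Asbestos Siglec F-high cells had 0.254 ± 0.0184 in the young and 0.288 ± 0.0666 in the old, and Siglec F-low cells 0.178 ± 0.0197 and 0.152 ± 0.0347. The Siglec F-low ratios did not overlap the Siglec F-high ratios at either age. On the log2 scale Siglec F-low minus Siglec F-high was -0.51 in the young and -0.92 in the old, each with an exact two-sided permutation p = 0.0286, the smallest that 4 against 4 libraries can give. Adjusted over 9 comparisons both became 0.0514, which misses the threshold, and without the libraries that stood apart the differences were -0.56 and -0.78. Asbestos minus naive within Siglec F-high cells was -0.33 in the young (exact permutation p = 0.0286, adjusted 0.0514) and -0.29 in the old (exact permutation p = 0.114, adjusted 0.171). Without the libraries that stood apart these were -0.28 and -0.44, each with an exact permutation p = 0.0286 before adjustment, the smallest that 3 against 4 libraries can give, so the old value moved by over 1.5 times without old Siglec F-high replicate 3. The old Siglec F-high replicate 3 held the highest ratio of its group, 0.384.

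**Figure D2:**
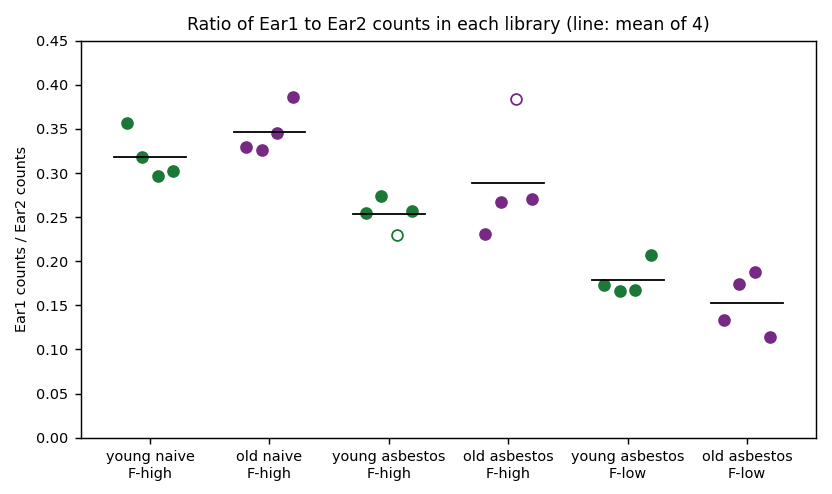
Ratio of Ear1 to Ear2 counts in each of the 24 libraries, with the axis from 0, lines at the means of 4 and open circles for the 2 libraries that stood apart. Means go from 0.319 and 0.347 in naive to 0.178 and 0.152 in Siglec F-low cells of young and old mice.

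Eosinophils carry ribonucleases of the same family, so their markers were measured beside Ear1 and Ear2. Of 8 eosinophil genes, Ear6 made up most of the sum, at 1.96 to 59.8 CPM. The sum was 3.79 to 9.29 CPM in naive, 18.2 to 32.0 in young and 8.17 to 42.5 in old asbestos Siglec F-high, and 44.6 to 65.8 in young and 25.0 to 66.3 in old Siglec F-low libraries. Epx, the eosinophil peroxidase gene, did not pass 0.181 CPM and was at 0 in 18 libraries, and Prg3 was at 0 in 23. In the young the sum was higher in all Siglec F-low than in all Siglec F-high libraries, and in the old the sums of the sorts overlapped. Ear6 is also on the list of other resident alveolar macrophage genes, so the sum does not measure eosinophils alone. The part of these cells in the results was not tested beyond these values.

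Fabp1 encodes the liver fatty acid-binding protein, a carrier of fatty acids inside the cell that is known as a PPAR target in liver. On GRCm38 the GENCODE gene (ENSMUSG00000054422) lies on chromosome 6 at 71199827 to 71205023, on the plus strand, and the RefSeq start is 52 bases further in. The 198 bases before the GENCODE start are printed from the RefSeq window (GRCm38.p6) because it holds AGGNCA and AGGTCA in a row with 1 base between them, a form of the direct repeat through which PPAR and RXR are known to bind. The match, in capitals, reads on the opposite strand and begins 67 bases before the RefSeq start.
Fabp1 (chr6:71199629-71199826, plus): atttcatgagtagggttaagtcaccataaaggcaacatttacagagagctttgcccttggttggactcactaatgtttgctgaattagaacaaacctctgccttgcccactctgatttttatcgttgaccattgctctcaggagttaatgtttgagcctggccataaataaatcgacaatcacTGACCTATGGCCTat
That repeat was searched on both strands in 32851 promoter windows of 300 bases and occurred in 31 of them (0.0944%), and in 1 of the 10 windows of the markers. The single AGGTCA element, which the repeat contains, occurred in 16.3% of all windows and in 2 of the 10, those of Fabp1 and Plet1. The PU.1-like letters GAGGAAGT occurred in 3.2% of all windows and in 0 of the 10, and the shorter GAGGAAG in 13.6% and in 1, that of Fabp1. A match is a description of letters. Krt19 had no window, so the 10 windows are not 1 for each marker and the counts are of windows.

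Fabp1 counts gave 180.2, 176, 116 and 121 CPM in young naive and 130.1, 128, 115 and 92.6 in old naive libraries. In asbestos Siglec F-high cells the values were 74.8, 81.8, 142 and 60.6 in the young and 69.9, 78.0, 44.1 and 62.5 in the old. In Siglec F-low cells they were 37.3, 31.5, 30.9 and 26.4 in the young and 26.7, 34.0, 49.5 and 14.8 in the old. The group means stepped down from naive to Siglec F-high to Siglec F-low cells at both ages. Young Siglec F-high replicate 3, at 142, overlapped the naive range, and the old sorts overlapped through replicate 3 of each. Between the sorts Fabp1 fell, with a log2 fold change of -1.51 ± 0.29 (adjusted p = 0.0021, edgeR) in the young and -1.05 ± 0.29 (adjusted p = 0.0372) in the old. The old call was lost without any 1 of 6 of the 8 libraries, Siglec F-high or F-low replicates 1, 2 and 4 (adjusted p of 0.0677 to 0.154), or with only the 2 groups fitted (0.0922). With 22 libraries the values were -1.20 ± 0.24 (adjusted p = 0.00152) in the young and -1.18 ± 0.24 (adjusted p = 0.00202) in the old. Siglec F-low cells held 21.3% of the naive mean in the young and 26.9% in the old.

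Cidec (ENSMUSG00000030278, chromosome 6, 113424634 to 113435760, minus strand) encodes a protein of the lipid droplet surface that promotes droplet growth. Naive cells held 419.7, 487, 465 and 445 CPM in the young and 425, 390.0, 436 and 366 in the old. Asbestos Siglec F-high cells held 299.7, 406, 294 and 362 in the young and 269, 374, 256 and 312 in the old. In Siglec F-low cells the values were 154, 189, 163 and 205 in the young and 162, 283, 182 and 136 in the old. The sorts did not overlap in the young and overlapped in the old through Siglec F-low replicate 2. Cidec fell between the sorts, with a log2 fold change of -0.94 ± 0.18 (adjusted p = 0.00191, edgeR) in the young and -0.67 ± 0.18 (adjusted p = 0.0303) in the old. The old call was lost without Siglec F-high replicate 2 or 4 or Siglec F-low replicate 1, 3 or 4 (adjusted p of 0.0766 to 0.163), without the filter on low counts or with only the 2 groups fitted. With 22 libraries it was called in the young (adjusted p = 2.65e-04) and in the old (-0.74 ± 0.17, adjusted p = 0.00423).

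Other lipid-handling genes were called in both directions. Of 24 genes of fatty acid uptake, storage and PPAR gamma, 21 were tested between the sorts, and 2 rose and 1 fell in the young, while 2 rose and 0 fell in the old. Among all genes 3.41% rose and 1.58% fell in the young, and 2.64% rose and 1.66% fell in the old. Fabp5, a fatty acid-binding protein of the same family as Fabp1, rose by 1.40 ± 0.23 (adjusted p = 4.99e-04, edgeR) in the young and by 1.30 ± 0.23 (adjusted p = 0.00118) in the old. Its mean CPM was 88.9 ± 20.1 in young naive and 396 ± 41.8 in young Siglec F-low cells. Cd36, a scavenger receptor that takes up fatty acids, rose by 1.08 ± 0.22 (adjusted p = 0.00432) in the young and by 0.78 ± 0.22 (adjusted p = 0.0485) in the old. G0s2, an inhibitor of fat breakdown, fell in the young, with a log2 fold change of -1.22 ± 0.31 (adjusted p = 0.0241). With 22 libraries the list counted 4 higher and 3 lower in the young and 4 higher and 2 lower in the old. The shares of all genes there were 7.42% and 4.60% in the young, and 6.30% and 5.28% in the old.

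Slc39a2 (ENSMUSG00000072572, chromosome 14, 51892889 to 51896745, plus strand) encodes ZIP2, a transporter that brings zinc into the cell. It was at 96.0, 65.0, 63.6 and 58.5 CPM in young naive and 92.3, 72.7, 86.0 and 128 in old naive libraries. Siglec F-high cells of asbestos mice held 153, 116, 130.3 and 119 in the young and 159, 142, 95.6 and 182 in the old. Siglec F-low cells held 257, 231, 208 and 223 in the young and 203, 148, 119 and 214 in the old. In the young the 3 groups did not overlap and rose in steps from naive to Siglec F-high to Siglec F-low, while in the old the sorts overlapped. Slc39a2 rose between the young sorts by 0.83 ± 0.21 (adjusted p = 0.0207, edgeR; 0.00599 with 22 libraries), a call from 24 lost without Siglec F-low replicate 1 or 2, and the old value was 0.23 ± 0.21 (adjusted p = 0.71). The difference between the ages in that change was -0.60 ± 0.29 (adjusted p = 0.761) and, with 22 libraries, -0.75 ± 0.27 (unadjusted p = 0.0115, adjusted p = 0.612), so a difference between ages was not shown. Its exons share 151 bases with Mettl17 on the same strand.

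**Figure D3:**
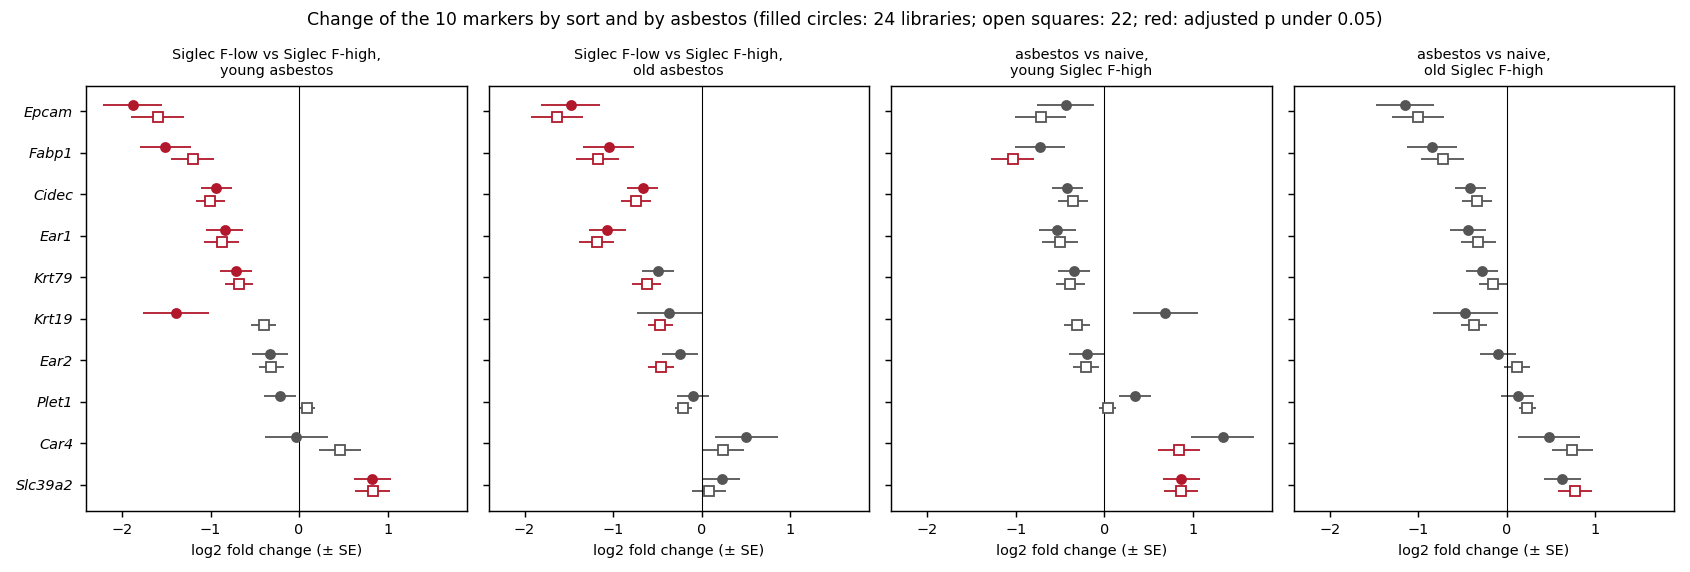
Log2 fold changes (points) with standard errors (bars) of the 10 markers between the sorts and between asbestos and naive Siglec F-high cells, at each age. Filled circles are from 24 and open squares from 22 libraries, and red marks an adjusted p under 0.05. Epcam lies lowest between the sorts at both ages, at -1.88 and -1.48, and Krt19 in the young moves from -1.39 to -0.40 between the fits.

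Asbestos against naive mice within Siglec F-high cells asked how the markers differed between cells sorted alike as Siglec F-high. With 24 libraries 1 of 10 markers was called in the young, Slc39a2, which rose by 0.87 ± 0.21 (adjusted p = 0.0319, edgeR), and 0 of 10 in the old. Of all genes 1.90% were called in the young and 0.780% in the old. An unadjusted p under 0.05 was reached by 5 markers at each age, against 2646 of 13467 genes in the young and 1151 in the old. DESeq2 called 2 of 9 markers in the young, both higher, and 1 in the old, lower, against 585 and 254 of 13673 genes. With limma voom 3 were called at each age, against 1895 and 687 of 13467 genes. These were 2 higher and 1 lower in the young, and 1 higher and 2 lower in the old. The Slc39a2 call was lost without young naive replicate 2, 3 or 4 or young asbestos Siglec F-high replicate 1 (adjusted p of 0.0664 to 0.150), without a filter on low counts (0.0505) and with only those 2 groups fitted (0.234). With 22 libraries 3 markers were called in the young, Slc39a2 (0.86 ± 0.19, adjusted p = 0.00944), Car4 (0.84 ± 0.23) and Fabp1 (-1.04 ± 0.24, adjusted p = 0.0121), against 5.06% of all genes. Without young Siglec F-high replicate 3 alone, Fabp1 was called as well (-1.03). In the old, 1 marker was called with 22 libraries, again Slc39a2 (0.77 ± 0.19, adjusted p = 0.0237), against 4.12%.

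Epcam in old Siglec F-high cells lay lower in all 4 asbestos (47.4 to 102 CPM) than in all 4 naive libraries (155 to 184) but missed the threshold, at -1.15 ± 0.33 (adjusted p = 0.133, edgeR) and with 22 libraries (adjusted p = 0.0563). Counting markers whose groups did not overlap gave 3 of 10 at each age, against 8.49% of all genes in the young and 7.70% in the old. With 22 libraries it gave 5 of 10 at each age, against 16.7% and 16.5%. Marker genes of B cells were lower in the asbestos libraries, with sums of 27.1 to 59.4 CPM in naive and 13.2 to 25.9 CPM in asbestos libraries, and their part in these results was not tested.

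Setting Siglec F-low cells of asbestos mice against naive Siglec F-high cells spans both steps, and was added after the data had been seen. It shares its libraries with the comparisons above. In the young 7 of 10 markers were called, 5 lower and 2 higher, against 4.43% lower and 7.94% higher among all genes (12.4% in all). In the old 6 were called, 5 lower and 1 higher, against 3.90% and 6.63% (10.5% in all). Epcam fell, with a log2 fold change of -2.32 ± 0.34 (adjusted p = 3.65e-05, edgeR) in the young and -2.63 ± 0.34 (adjusted p = 9.97e-06) in the old, and so did Fabp1, with -2.23 ± 0.29 and -1.90 ± 0.29. Ear1, Cidec and Krt79 were the other 3 that fell at both ages, with log2 fold changes of -0.77 to -1.50.

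Slc39a2 rose across that span by 1.70 ± 0.21 (adjusted p = 5.54e-06, edgeR) in the young and by 0.85 ± 0.21 (adjusted p = 0.00832) in the old, to 324% and 180.4% of the naive mean. Car4 rose by 1.31 ± 0.36 (adjusted p = 0.0162) in the young, to 248% of naive, and in the old with 22 libraries (0.98 ± 0.22, adjusted p = 0.00146). The young call was lost without naive replicate 3 or 4 (1.17 each), and the old value passed the threshold in the 24 without naive replicate 4 (1.32). Plet1 stayed uncalled, at 109.6% and 102% of the naive mean. Ear2, at 69.9% and 78.8%, and Krt19, at 61.5% and 56.0%, were uncalled with 24 libraries. With 22 libraries, where 34.7% of all genes were called in the young and 30.7% in the old, Krt19 fell at both ages and Ear2 in the young. Of the 10 markers, 9 in the young and 8 in the old did not overlap between these groups, against 29.6% and 29.8% of all genes.

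**Figure D4:**
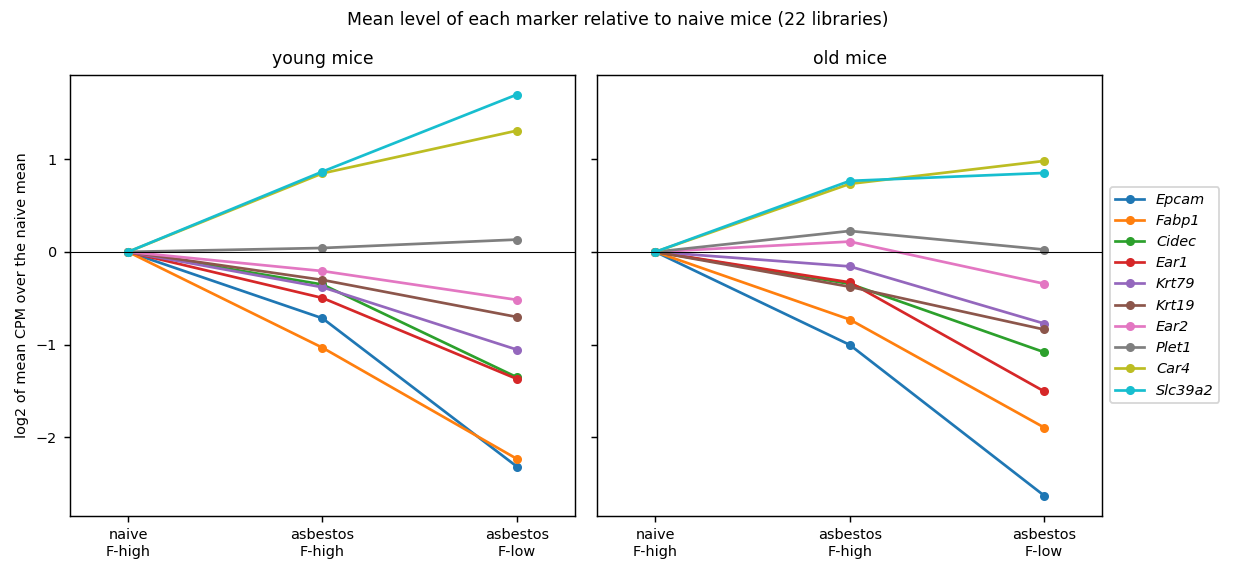
Log2 of each marker's mean CPM over its naive mean in naive Siglec F-high, asbestos Siglec F-high and asbestos Siglec F-low cells, for young and old mice, from 22 libraries. Epcam and Fabp1 end lowest, Slc39a2 and Car4 end highest, and Plet1 stays near 0.

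Age was compared in the 3 pairs of groups that differ in it alone. With 24 libraries 0 of 10 markers were called between old and young mice in naive Siglec F-high, asbestos Siglec F-high or asbestos Siglec F-low cells by edgeR, where 2.03%, 4.76% and 1.29% of all genes were called. At an unadjusted p under 0.05 the counts were 0, 2 and 1, against 1164, 3538 and 1097 of the 13467 genes. DESeq2, which gave an adjusted p for 9 of the 10 markers, called 0 in each, against 451, 1463 and 332 of all genes. The calls of limma voom were 1, 0 and 1, against 1870, 1896 and 1285 of 13467 genes. With 22 libraries the call of Plet1 in Siglec F-low cells was the only one by edgeR without a replicate block, against 7.21% of all genes there and 8.03% and 7.32% in the other 2 comparisons. Krt19 in asbestos Siglec F-high cells was at -1.16 ± 0.37 (adjusted p = 0.0675) in old against young with 24 libraries and at -0.06 ± 0.15 without the 2 that stood apart. That value passed the threshold in the 24 without young Siglec F-high replicate 1, 2 or 4 (-1.38, -1.37 and -1.37), which leaves more weight on replicate 3, at 3445 CPM. No marker was called by edgeR in the test of whether the sort or the asbestos difference itself changed with age, where 0% of all genes were called with 24 and 0.0147% with 22 libraries. DESeq2, with an adjusted p for 9 of the 10 markers, and limma voom called 0 markers too. Of all genes DESeq2 called 4 of 25854 for the sort and 0 for asbestos, and limma voom 15 and 3 of 13467. With 24 libraries an unadjusted p under 0.05 was reached by 0 markers for the sort and 1 for asbestos, against 650 and 1050 of 13467 genes. The smallest adjusted p of a marker was 0.761 for the sort and 0.587 for asbestos with 24, and 0.612 and 0.998 with 22 libraries.

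Other genes known from resident alveolar macrophages moved both ways. Of 26 such genes 25 were tested, and between the sorts 3 rose and 3 fell in the young and 3 rose and 5 fell in the old, with medians of 0.18 and -0.01. Among all genes tested 3.41% rose and 1.58% fell in the young, and 2.64% rose and 1.66% fell in the old. Ctsk, a cysteine protease, rose by 1.14 ± 0.26 (adjusted p = 0.00869, edgeR) in the young and by 1.21 ± 0.26 (adjusted p = 0.00686) in the old. Il18, an interleukin, fell, with -0.60 ± 0.14 (adjusted p = 0.0122) in the young and -0.60 ± 0.14 (adjusted p = 0.0158) in the old. Siglecf, which the sort selected, is on this list. Fabp5, Fabp4, Lpl, Pparg and Plin2 are on the list of lipid-handling genes as well, so the rise of Fabp5 is counted in both lists. In Siglec F-high cells 3 of the 25 rose with asbestos in the young and 4 in the old, and 0 fell. Ear6, which is also on the eosinophil list, and Ctsk were among those that rose at both ages. Of all 13467 genes 192 rose and 64 fell in the young, and 96 rose and 9 fell in the old. With 22 libraries 10 of the 25 rose and 0 fell in the young. In the old 7 rose and 1, the cholesterol exporter gene Abcg1, fell. Of all 13629 genes 474 rose and 216 fell in the young, and 430 rose and 132 fell in the old. Between the sorts the counts of this list with 22 libraries were 6 higher and 5 lower in the young and 5 and 7 in the old. The shares of all genes were 7.42% and 4.60% in the young, and 6.30% and 5.28% in the old.

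Of 20 genes known from monocyte-derived macrophages, 11 rose and 0 fell in Siglec F-low cells at each age (13 and 0 with 22 libraries), with medians of 1.54 in the young and 1.21 in the old. Among all genes 3.41% rose and 1.58% fell in the young, and 2.64% rose and 1.66% fell in the old. With 22 libraries these shares were 7.42% and 4.60% in the young, and 6.30% and 5.28% in the old. C1qb, a chain of the complement C1q protein that tissue macrophages secrete, rose by 2.97 ± 0.23 (adjusted p = 6.22e-08, edgeR) in the young and by 4.11 ± 0.25 (adjusted p = 9.53e-10) in the old. Its mean was 3.18 ± 0.691 CPM in young naive and 45.9 ± 4.97 in young Siglec F-low cells. Apoe, the lipid carrier apolipoprotein E, rose by 2.46 ± 0.20 (adjusted p = 9.95e-08) in the old. The markers that fell, the rise of Slc39a2 in the young and the rise of these genes were called between the same bulk libraries. A different share of cells and a different level per cell cannot be told apart there. The sum of 10 endothelial genes, most of it Vwf (63.4 to 313 CPM), was 68.7 to 185.8 CPM in young Siglec F-high and 240.6 to 273 CPM in young Siglec F-low cells of asbestos mice. In the old the ranges overlapped, with 149.9 to 272 CPM in Siglec F-high and 193.1 to 324 CPM in Siglec F-low cells, and Emcn of that list was at 0 in 15 libraries. Apart from Vwf, no gene of that list passed 7.35 CPM in any library, so the sum mostly follows Vwf. Neutrophil genes summed to 46.6 to 112.7 CPM and T cell genes to 7.35 to 28.9 CPM over the libraries, and the part of such cells in the results was not tested.

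The markers did not vary as 1 block. Over 22 libraries, on log2 CPM, 25 of the 45 pairs of markers had a positive Pearson r, and r ran from -0.852 to 0.954. Ear1 and Fabp1 were the most alike pair (r = 0.954), and Car4 and Slc39a2 paired with each other (r = 0.931) while running against Fabp1 (r = -0.778 and -0.852). The r of Plet1 with the other markers lay between -0.254 and 0.305. After subtracting group means, Ear1 with Fabp1 kept r = 0.838, Ear1 with Ear2 r = 0.817 and Car4 with Slc39a2 r = 0.788, and the median over the 45 pairs was 0.288. The libraries share their group, depth and processing, so these values only describe.

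**Figure D5:**
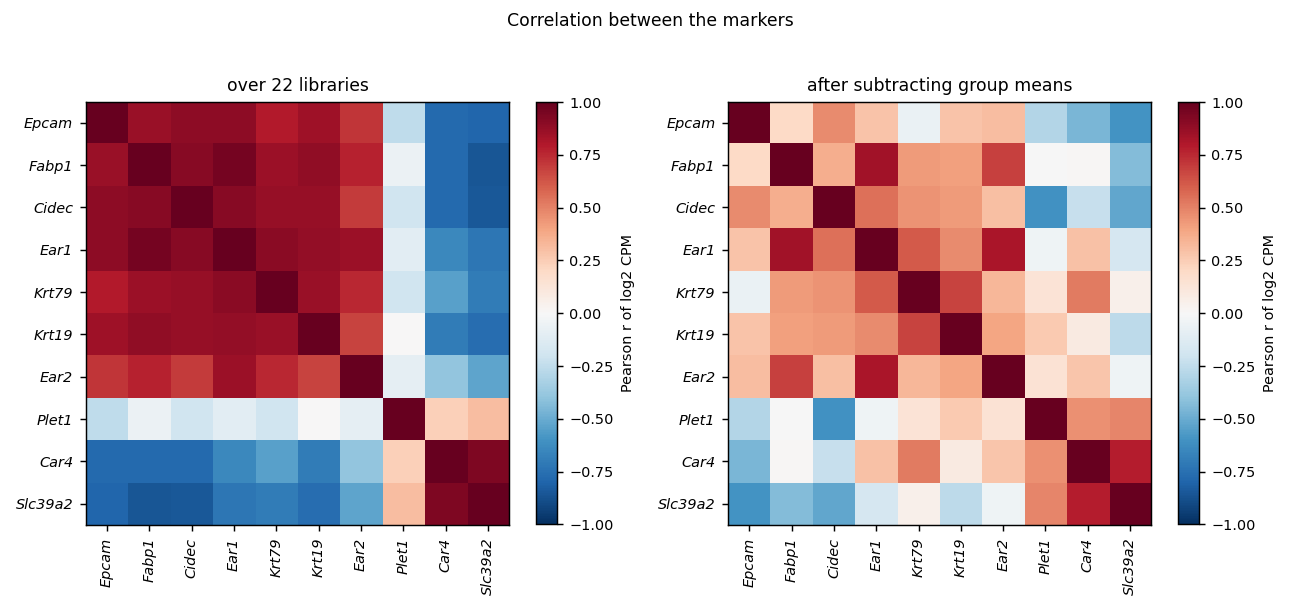
Pearson r of log2 CPM between the 10 markers over 22 libraries, before (left) and after (right) subtracting group means. Car4 and Slc39a2 go together, at 0.931 and 0.788, and against Epcam, Fabp1, Cidec and Ear1 in the left panel.

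Among all genes tested, the 2 most like each marker over the same 22 libraries, by Pearson r of log2 CPM, were found as a description. Cidec had the closest, Sec14l2 (r = 0.983) and Pnpla5 (0.968). Slc39a2 was most like Cxcr1 (0.965) and Mreg (0.962), Fabp1 like Snn (0.963) and C5ar1 (0.953), and Epcam like H2-DMa (0.955) and Hr (0.950). Ear1 was most like Pilra (0.950) and Eif5a2 (0.949), and Ear2 like Slamf9 (0.902) and Ramp1 (0.892). The genes most like Car4 were Cd200 (0.945) and Ctsa (0.942). Krt79 came with Sema4a (0.907) and Pygo2 (0.894), Krt19 with Pitpna (0.927) and Fam107b (0.918), and Plet1 with Gyg (0.914) and Pcna (0.901).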

How the data were processed

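RNA was extracted from sorted cells with an AllPrep kit, and poly(A)-selected libraries were made from 30 ng with a NEBNext Ultra kit, per the labels' protocols. The submitters' processing notes name bcl2fastq 2.19.1, FastQC, Trimmomatic 0.36, STAR 2.6.0, HTSeq 0.11.2 and mm10. The annotation, strand setting and counting mode are not given in the sources used here. The authors deposited 1 table of unscaled whole-number counts per Ensembl gene, and its 24 columns were matched to samples by title. Gene positions were taken from GENCODE M21 (GRCm38), where 97.96% of the table's gene IDs were found. Genes passed filterByExpr at a minimum count of 10 and total of 15. Counts were fitted with the quasi-likelihood test of edgeR 4.0.16 in R 4.3.3, TMM factors, 1 term per group, all 24 libraries together, with Benjamini-Hochberg adjustment over all genes tested, and the script was tested on simulated data. A prior count of 2 was used for log2 CPM. CPM values cover 13423080 to 18124526 counts a library outside the 2 that stood apart, and the median standard error of a log2 fold change in naive cells was 0.24.

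The members and lists were chosen with earlier results of these data known. All 10 markers are named with their 24 values. For each marker the 2 most alike genes outside the markers are named, with gene model names left out. In other lists at most 4 called genes of smallest p per comparison are named. Plet1os, Mettl17 and the marker genes of other cell types are named for overlap or as controls. Alternatives were 22 libraries, the compared groups alone, median-ratio size factors, no filter, DESeq2 1.42.0, limma voom 3.58.1, a replicate block and leaving out each library.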

Additional observations from a re-analysis of the deposited data

Results flagged for a closer look

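In 8 of 60 combinations of marker and group, 1 library lay far from the other 3 by Dixon's test, which chance does in about 1 in 20 groups, and 3 of the 8 were in a library that stood apart over all genes. Those 3 were young asbestos Siglec F-high replicate 3, with Car4 at 1843 CPM (others 629 to 817), Krt19 at 3445 (670 to 716) and Plet1 at 2419 (1173 to 1322). Car4 was at 773 CPM in old naive replicate 4 (others 358 to 394). Krt19 was at 1211 in young naive replicate 2 (736 to 742) and at 595 in young Siglec F-low replicate 1 (499.9 to 509). Krt79 was at 280.2 CPM in young Siglec F-low replicate 3 (333 to 343). Ear2 was at 1076 in young asbestos Siglec F-high replicate 4, just under the other 3 (1200 to 1216).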

How the results depend on the processing

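With 22 libraries the count of markers called went from 0 to 1 for old against young Siglec F-low cells, from 1 to 3 for asbestos against naive in the young, from 0 to 1 in the old, and from 4 to 7 for the old sorts. In the same order the calls among all genes went from 174 to 983, from 256 to 690, from 105 to 562 and from 579 to 1578. Same-numbered libraries deviated from their group means with correlations of 0.0733 to 0.186 in the old and -0.180 to 0.245 in the young sorts, so the numbers were not taken to pair the samples. With 22 libraries all 3 numbers of the old sorts were over 0.1 (0.150 to 0.205), so the same rule would take them as paired, and those of the young were not all (0.0854 to 0.319). Young asbestos Siglec F-low and young naive libraries, which came from different mice, gave 0.066 to 0.163 with 24 libraries, so the rule cannot settle pairing. The labels do not say whether same-numbered Siglec F-high and F-low libraries came from the same mouse. With a replicate block the count was 6 for the young sorts, where 7 were called without (Krt19 lost, adjusted p = 0.0704, edgeR), and 4 for the old, and the block changed no other count. All genes called were 680 in the young and 548 in the old sorts, against 672 and 579 without the block. With the block and 22 libraries the counts were 1 for naive age, 2 for Siglec F-low age (Plet1 and Slc39a2), 3 and 3 for asbestos in young and old, 8 for the young sorts (Krt19 and Ear2 added, against 6 without the block), 7 for the old sorts as without the block, and 9 for Siglec F-low against naive at each age (8 in the old without). Of all 13629 genes that fit called, in the same order, 1476, 1240, 889 and 725, 2440, 1954, and 5273 and 4689. Its markers called for asbestos were 2 higher and 1 lower in the young, and 1 higher and 2 lower in the old. limma voom gave 1 for naive age (Slc39a2, higher in the old), 1 for Siglec F-low age and 3 and 3 for asbestos in young and old. Of all 13467 genes it called 1870, 1285, and 1895 and 687 there. Fitting only the compared groups gave 1 for Siglec F-low age, 0 and 1 (lower) for asbestos in young and old, and 2 for the old sorts. The calls among all genes were 798 of 12463, 10 of 12469, 51 of 12362 and 610 of 12352 in that order. For asbestos in the young, median-ratio size factors gave 2, no filter gave 0 and DESeq2 gave 2, and DESeq2 gave 1 in the old. Among all genes these fits called 269 of 13467, 195 of 26235, 585 of 13673 and 254 of 13673. DESeq2 gave an adjusted p for 9 of the 10 markers in each comparison, and between the young sorts Krt19 had none. Leaving out 1 library at a time gave 0 to 2 for age in asbestos Siglec F-high cells, 0 to 2 for asbestos in the young, 4 to 7 for the young and 1 to 4 for the old sorts, 6 to 7 for each comparison of Siglec F-low with naive cells, and 0 elsewhere. The calls among all genes ran from 314 to 1592, 101 to 647, 427 to 1158 and 269 to 531 in the first 4 of these. For Siglec F-low against naive cells they ran from 1171 to 1444 in the young and 996 to 1290 in the old. Signs turned in uncalled differences between the sorts. Car4 in the young, -0.03, became 0.46 with 22 libraries, 0.56 with the block as well and 0.41 with voom, and ran from -0.19 to 0.46 with 1 library left out, above 0 without Siglec F-high replicate 3 (0.46) or Siglec F-low replicate 3 (0.040) or 4 (0.042). Plet1 in the young, -0.22, became 0.089, 0.11 and 0.033 under the first 3 of these, and ran from -0.32 to 0.090 without 1 library, above 0 without Siglec F-high replicate 3. In the old, Plet1, -0.09, ran from -0.21 to 0.0060, above 0 without Siglec F-high replicate 4. The causes were not tested.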
